A study of Mus musculus with 12 samples.

Results

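Mitochondrial fatty acid oxidation and ketone body synthesis were followed here through 33 listed genes, which cover the regulators of the pathway, fatty acid uptake and activation, the carnitine shuttle, the enzymes of the beta-oxidation cycle, electron transfer and ketone body formation. A gene counted as measured where a probe set carried its symbol and no other, and where a gene had several such probe sets the brightest over the 12 arrays stood for it. By that rule 30 of the 33 genes were measured, among 18193 genes with such a probe set on the arrays. All 30 passed the filter on low signal, which left 12755 genes in all for testing. Cpt1b occurred only on a probe set with several symbols, and Acsl1 and Ucp2 were not named in the probe annotation used, so none of these 3 was analysed.

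The arrays measured RNA of whole livers from BALB/c mice in a study of acute autoimmune hepatitis, with 4 groups of 3 arrays and 1 mouse per array. TGFB KO mice lack the cytokine transforming growth factor beta 1 (Tgfb1), which restrains lymphocytes, and keep interferon gamma (Ifng). Wildtype control mice keep both genes. IFNko TGFB1 KO mice are labelled as lacking both Tgfb1 and Ifng, and INFko TGFB+ mice, spelled in that way in the labels, as lacking Ifng and keeping Tgfb1. The design text describes TGF-beta1-/- mice, TGF-beta1-/-/IFN-gamma-/- mice and TGF-beta1+/+ littermates, so by their labels both groups of the second comparison carry the Ifng deletion. The labels do not state whether INFko TGFB+ mice carry 1 or 2 intact Tgfb1 copies, and they give no age or sex. The Tgfb1 probe set was 3.54-fold lower in TGFB KO than in wildtype control livers (log2 fold change -1.82 ± 0.43, adjusted p = 0.0105 in limma), and 4.11-fold lower in IFNko TGFB1 KO than in INFko TGFB+ livers (-2.04 ± 0.43, adjusted p = 0.00556). The Ifng probe set gave more signal in the IFNko TGFB1 KO than in the INFko TGFB+ arrays, so that name stands for the label throughout. Its mean log2 level was 7.08 in TGFB KO, 5.02 in wildtype control, 6.08 in IFNko TGFB1 KO and 4.45 in INFko TGFB+ livers, and it was higher in the arrays labelled IFNko TGFB1 KO than in INFko TGFB+ (log2 fold change 1.63 ± 0.30, adjusted p = 0.00243 in limma). Where this probe set lies relative to the disrupted stretch of Ifng is not given in the sources used here.

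Trimmed mean signal lay at 149.9 to 150 on all arrays. On IFNko TGFB1 KO 1 the median signal was 61.3, against 33.8 to 42.6 on the other 11 arrays, and its rank correlations with them were 0.754 to 0.809. Signal of 8 skeletal muscle genes summed to 7370 on wildtype control 2 and to 1900 on IFNko TGFB1 KO 2, against 77.8 to 409 on the other 10 arrays. Levels are given as quantile-normalised log2(signal + 16), and differences between levels of different genes carry no meaning on these arrays. Folds on this scale understate changes of dim genes. The values are of bulk tissue, in which fewer hepatocytes and less RNA per hepatocyte cannot be told apart.

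Fatty acids enter the hepatocyte through membrane transporters, are bound by fatty acid binding protein and are activated to acyl-CoA. Carnitine palmitoyltransferases carry the long acyl chains into the mitochondrion, where acyl-CoA dehydrogenase, enoyl-CoA hydratase, 3-hydroxyacyl-CoA dehydrogenase and thiolase shorten them in repeated rounds. The liver turns much of the resulting acetyl-CoA into ketone bodies during fasting and suckling. The nuclear receptor PPAR-alpha, encoded by Ppara, is the chief transcriptional activator of these genes in liver, and it binds direct repeats of a hexamer, AGGTCA, spaced by 1 base.

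Promoter sequence was searched for this hexamer, as many genes of the pathway are known targets of PPAR-alpha. RefSeq promoter windows of build GRCm38.p6, running from 250 bases before to 50 after the transcription start, were matched by symbol for 28 of the 30 measured genes, in 29 windows. The hexamer AGGTCA, on either strand (TGACCT on the other), occurred in 7 of these 29 windows (24.1%), those of Acadm, Acadvl, Cd36, Cpt1a, Echs1, Fabp1 and Slc27a2, against 5340 of all 32851 windows (16.3%). The exact repeat AGGTCANAGGTCA, which contains the hexamer 2 times, occurred in 0 of the 29 windows against 13 of all windows (0.0396%). With any base allowed at position 4 of each hexamer, AGGNCANAGGNCA was found in 1 of the 29 windows (3.45%), that of Fabp1, against 125 of all windows (0.381%). A match of letters describes these windows and says nothing of binding, and sequence outside the windows was not searched. The windows printed next are those of Acadm, Acadvl, Echs1 and Cd36, which hold the hexamer and whose genes changed in both comparisons (the first 3 lower, Cd36 higher), and that of Fabp1, which holds the repeat and whose gene did not pass the threshold. They are examples, as Slc27a2 also holds the hexamer and was lower in both comparisons. Each is written 5′ to 3′ on the strand of its gene, with the hexamer, or the repeat in Fabp1, in capitals. Acadm lies at chr3:153944594-153944893 (minus strand), Acadvl at chr11:70015379-70015678 (minus strand), Echs1 at chr7:140116372-140116671 (minus strand), Cd36 at chr5:17835847-17836146 (minus strand) and Fabp1 at chr6:71199629-71199928 (plus strand).
Acadm: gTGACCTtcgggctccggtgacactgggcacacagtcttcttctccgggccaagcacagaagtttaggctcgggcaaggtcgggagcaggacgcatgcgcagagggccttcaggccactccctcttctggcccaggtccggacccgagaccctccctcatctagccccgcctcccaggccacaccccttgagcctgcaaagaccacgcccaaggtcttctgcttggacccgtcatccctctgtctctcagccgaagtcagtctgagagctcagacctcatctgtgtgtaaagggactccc
Acadvl: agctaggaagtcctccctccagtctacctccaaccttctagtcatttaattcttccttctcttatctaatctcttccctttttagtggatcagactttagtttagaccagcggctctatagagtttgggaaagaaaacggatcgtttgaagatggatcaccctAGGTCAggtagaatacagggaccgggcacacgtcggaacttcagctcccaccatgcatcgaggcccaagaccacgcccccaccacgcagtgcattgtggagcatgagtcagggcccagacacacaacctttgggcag
Echs1: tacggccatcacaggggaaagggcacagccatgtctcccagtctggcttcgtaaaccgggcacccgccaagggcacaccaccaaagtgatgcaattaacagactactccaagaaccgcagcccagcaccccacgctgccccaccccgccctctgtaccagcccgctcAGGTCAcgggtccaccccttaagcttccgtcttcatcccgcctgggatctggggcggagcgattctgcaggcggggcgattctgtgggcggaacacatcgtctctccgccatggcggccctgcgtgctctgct
Cd36: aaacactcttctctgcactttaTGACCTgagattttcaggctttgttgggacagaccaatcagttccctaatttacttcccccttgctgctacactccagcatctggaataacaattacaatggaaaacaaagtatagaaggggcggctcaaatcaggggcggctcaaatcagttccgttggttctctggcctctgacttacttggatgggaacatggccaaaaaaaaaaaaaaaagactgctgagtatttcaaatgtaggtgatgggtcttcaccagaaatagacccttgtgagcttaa
Fabp1: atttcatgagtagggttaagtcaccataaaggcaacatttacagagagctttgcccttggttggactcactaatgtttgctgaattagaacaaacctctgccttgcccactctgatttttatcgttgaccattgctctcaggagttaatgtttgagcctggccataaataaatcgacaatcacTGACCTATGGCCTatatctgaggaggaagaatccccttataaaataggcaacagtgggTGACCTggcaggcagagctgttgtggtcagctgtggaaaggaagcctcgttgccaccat
The hexamer starts 249 bases upstream of the start site in Acadm, 87 in Acadvl, 83 in Echs1 and 228 in Cd36, and 220 in the window of Slc27a2, which is not printed. In Fabp1 the repeat starts 67 bases upstream and a further hexamer 9 bases upstream.

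Loss of Tgfb1 was compared first in mice that keep Ifng. Of the 30 genes, 18 were lower and 2 higher in TGFB KO than in wildtype control livers at an adjusted p below 0.05 (limma, Benjamini-Hochberg adjustment over 12755 genes). Over all genes tested, 24.1% were called, 11.9% lower and 12.2% higher. The median log2 fold change of the 30 genes was -0.75, against -0.06 over all genes, and 26 of the 30 had a negative fold change. The genes that fell were Ppara, Fgf21, the transporter Slc27a2, Cpt1a and Cpt2 of the carnitine shuttle, all 6 acyl-CoA dehydrogenases, Hadha, Hadh, Echs1 and Acaa2 of the later steps, Decr1, Etfdh and Bdh1. The 2 that rose were Pdk4 and Cd36. The 3 TGFB KO arrays lay wholly below the 3 wildtype control arrays for 25 of the 30 genes, an order found for 21.9% of all genes. With arrays centred on their medians lower genes made up 38.2% of all genes called in this comparison, against 49.5% with quantile normalization, and 65.4% against 50.8% in the next, where the median of all genes then moved to -0.15.

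The same loss was then compared between the groups labelled Ifng-deficient, a label that the Ifng probe set could not decide for IFNko TGFB1 KO livers. There 17 of the 30 genes were lower and 2 higher in IFNko TGFB1 KO than in INFko TGFB+ livers (limma, adjusted p below 0.05), where 25.8% of all genes were called, 13.1% lower and 12.7% higher. Their median log2 fold change was -0.84, against -0.01 over all genes, and 26 of 30 were negative. The arrays of the 2 groups did not overlap for 24 genes in the lower direction, against 23.3% of all genes. These 2 comparisons share no arrays, but they share the normalization and the estimate of spread, so their p-values are not independent. Lower in both were 15 genes (Ppara, Fgf21, Slc27a2, Cpt2, Acadvl, Acadl, Acadm, Acads, Acad8, Acad10, Hadh, Echs1, Acaa2, Decr1 and Etfdh), and Pdk4 and Cd36 were higher in both. Of all 12755 genes, 962 were lower in both and 957 higher in both.

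**Figure D1:**
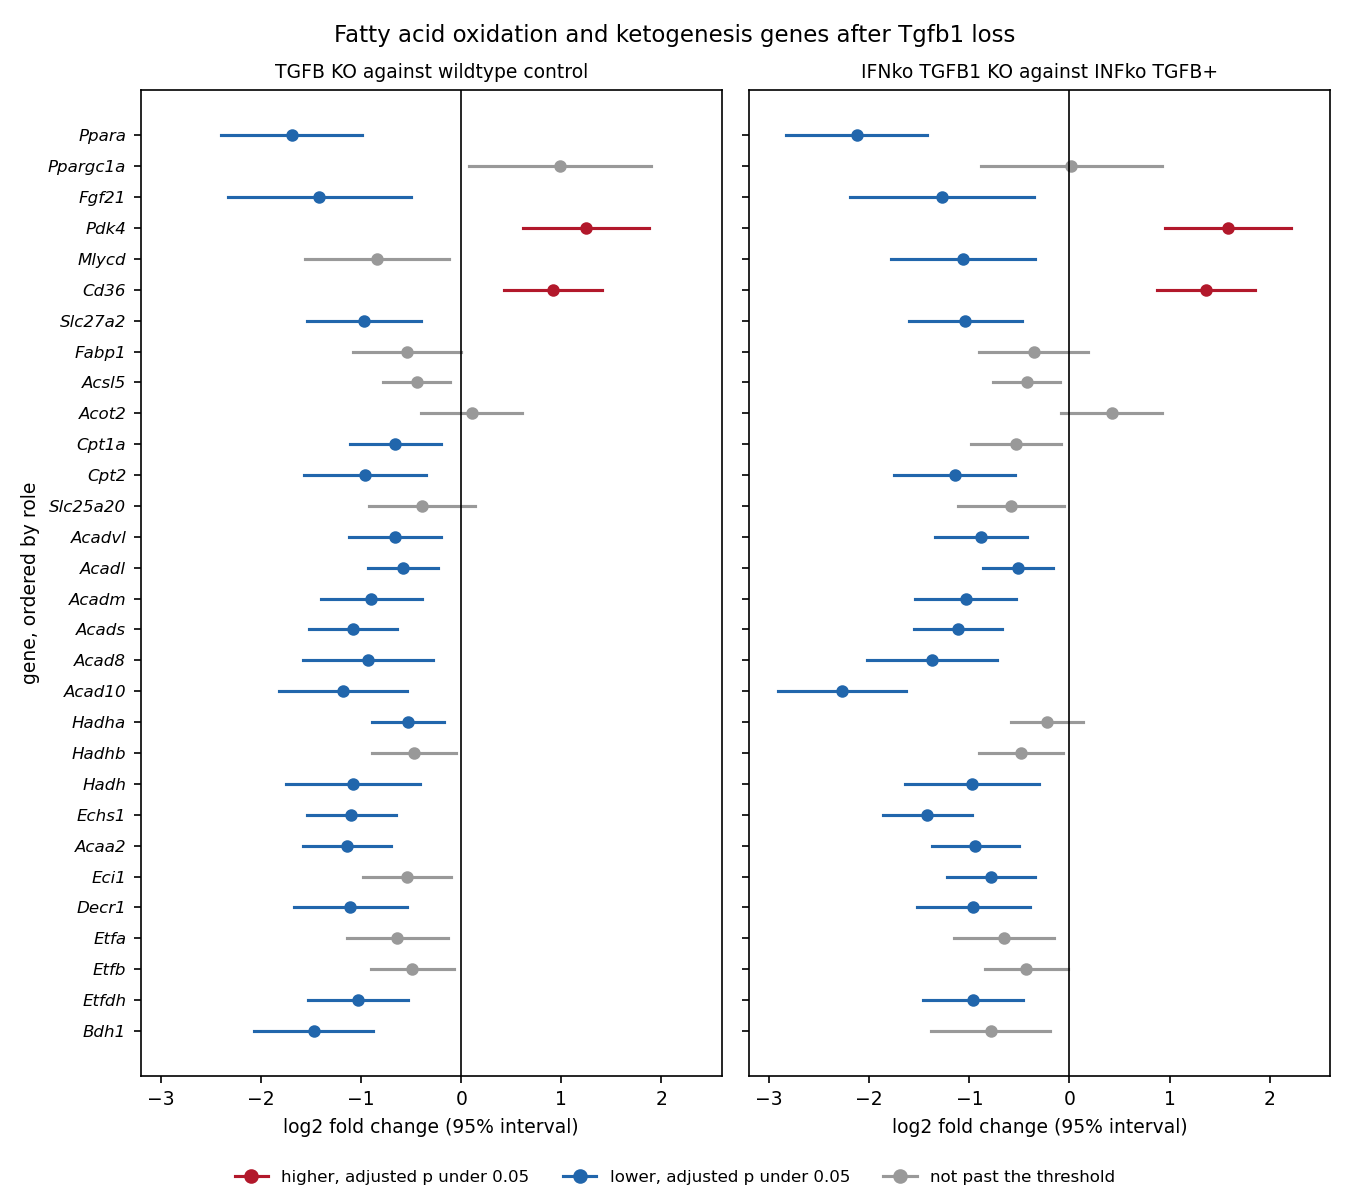
Log2 fold change of each of the 30 genes with its 95% interval (x axis), in TGFB KO against wildtype control livers (left) and IFNko TGFB1 KO against INFko TGFB+ livers (right), 3 arrays per group. Blue points are lower and red points higher at an adjusted p below 0.05, 18 and 2 genes on the left and 17 and 2 on the right, and grey points did not pass the threshold.

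Among the regulators, Ppara fell in both comparisons. Its log2 level was 8.79, 8.99 and 8.72 in TGFB KO livers, against 10.36, 10.47 and 10.76 in wildtype control livers. It was 8.90, 7.84 and 9.36 in IFNko TGFB1 KO livers, against 10.84, 11.08 and 10.54 in INFko TGFB+ livers. In every array that lacks Tgfb1 the level was below all 6 arrays that keep it. The fold changes were 3.24-fold lower in TGFB KO livers (log2 -1.69 ± 0.32, adjusted p = 0.00296 in limma) and 4.36-fold lower in IFNko TGFB1 KO livers (-2.12 ± 0.32, adjusted p = 0.000863). Ppara has 2 further probe sets, and these differed by -1.43 and -1.69 in the first comparison and by -1.90 and -1.86 in the second.

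Fgf21, a hepatic hormone that PPAR-alpha induces in fasting, was at a log2 level of 6.46, 6.41 and 5.63 in TGFB KO livers, against 7.96, 7.60 and 7.19 in wildtype control livers. The arrays labelled IFNko TGFB1 KO had 5.11, 6.01 and 7.02, against 7.48, 6.99 and 7.49 in INFko TGFB+ livers. The groups did not overlap in the first comparison, whereas IFNko TGFB1 KO 3 lay within the range of INFko TGFB+ in the second. Its log2 fold change was -1.42 ± 0.42 (adjusted p = 0.0297 in limma) in TGFB KO livers and -1.27 ± 0.42 (adjusted p = 0.0438) in IFNko TGFB1 KO livers.

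Pdk4, the pyruvate dehydrogenase kinase that holds back glucose oxidation, moved the other way. It was at 9.61, 8.996 and 9.20 in TGFB KO livers, against 7.54, 8.38 and 8.15 in wildtype control livers. Levels of 9.26, 9.79 and 8.92 were found in IFNko TGFB1 KO livers, against 7.87, 7.94 and 7.38 in INFko TGFB+ livers. All 6 arrays without Tgfb1 lay above all 6 with it. The rise was 2.37-fold in TGFB KO livers (log2 1.25 ± 0.29, adjusted p = 0.00877 in limma) and 3.00-fold in IFNko TGFB1 KO livers (1.59 ± 0.29, adjusted p = 0.00233). Pdk4 is itself a known PPAR-alpha target, as are many of the genes that fell.

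Mlycd, the malonyl-CoA decarboxylase that removes the inhibitor of carnitine palmitoyltransferase 1, was lower in IFNko TGFB1 KO livers (log2 -1.06 ± 0.33, adjusted p = 0.0333 in limma). In TGFB KO livers its fold change of -0.84 ± 0.33 did not pass the threshold (adjusted p = 0.0873). Ppargc1a, the PPAR gamma coactivator, differed on the log2 scale by 0.99 ± 0.41 (adjusted p = 0.109) in TGFB KO livers and by 0.02 ± 0.41 (adjusted p = 0.977) in IFNko TGFB1 KO livers. Its 3 IFNko TGFB1 KO arrays spread from 6.35 to 8.16, wider than the 7.10 to 7.57 of INFko TGFB+.

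Of the uptake and binding genes, Cd36 rose and Slc27a2 fell. Cd36, a fatty acid translocase that macrophages and endothelium also express, was at 9.19, 9.30 and 8.98 in TGFB KO livers, against 8.32, 8.44 and 7.96 in wildtype control livers. In IFNko TGFB1 KO livers it was 9.19, 9.95 and 9.22, against 8.01, 8.01 and 8.25 in INFko TGFB+ livers. No array without Tgfb1 fell within the range of those that keep it. The rise was 1.89-fold in TGFB KO livers (log2 0.92 ± 0.22, adjusted p = 0.0117 in limma) and 2.57-fold in IFNko TGFB1 KO livers (1.36 ± 0.22, adjusted p = 0.00135), and both further Cd36 probe sets differed in the same direction. Beside this rise, all 16 tested macrophage and monocyte markers were higher in both comparisons, against 12.2% and 12.7% of all genes. Their summed signal was 56700 to 61000 in TGFB KO, against 8601 to 10530 in wildtype control livers, and 44390 to 60570 in IFNko TGFB1 KO, against 8476 to 8483 in INFko TGFB+ livers. The part of these cells in the Cd36 result was not tested.

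Slc27a2, the very long chain acyl-CoA synthetase and transporter of hepatocytes, was 1.96-fold lower in TGFB KO livers (log2 -0.97 ± 0.26, adjusted p = 0.0187 in limma) and 2.05-fold lower in IFNko TGFB1 KO livers (-1.04 ± 0.26, adjusted p = 0.0123). Fabp1, the abundant liver fatty acid binding protein, was at 13.54, 13.53 and 13.92 in TGFB KO livers, against 13.90, 14.15 and 14.56 in wildtype control livers. It was 14.37, 13.63 and 14.47 in IFNko TGFB1 KO livers, against 14.50, 14.66 and 14.39 in INFko TGFB+ livers. The groups overlapped in both comparisons, and limma gave -0.54 ± 0.25 (adjusted p = 0.139) for TGFB KO and -0.36 ± 0.25 (adjusted p = 0.324) for IFNko TGFB1 KO livers.

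Of the activation genes, neither measured gene passed the threshold. Acsl5, a long chain acyl-CoA synthetase, differed by -0.44 ± 0.15 (adjusted p = 0.0544 in limma) in TGFB KO livers and -0.43 ± 0.15 (adjusted p = 0.0612) in IFNko TGFB1 KO livers. Acot2, a mitochondrial acyl-CoA thioesterase, had 0.10 ± 0.23 (adjusted p = 0.793) and 0.42 ± 0.23 (adjusted p = 0.208) in the same comparisons.

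In the carnitine shuttle, Cpt1a encodes the liver form of carnitine palmitoyltransferase 1, the step at which entry of fatty acids into mitochondria is controlled. Its log2 level was 11.01, 11.53 and 10.94 in TGFB KO livers, against 12.08, 11.79 and 11.59 in wildtype control livers. The arrays labelled IFNko TGFB1 KO had 11.20, 11.04 and 11.31, against 11.78, 11.88 and 11.48 in INFko TGFB+ livers. The arrays of the groups did not overlap in either comparison. Cpt1a was 1.58-fold lower in TGFB KO livers (log2 -0.66 ± 0.21, adjusted p = 0.0378 in limma), and in IFNko TGFB1 KO livers its -0.53 ± 0.21 missed the threshold (adjusted p = 0.0812). The difference between these effects was 0.13 with a 95% interval of -0.51 to 0.77. Further Cpt1a probe sets differed by -0.34 and -0.38 in the first comparison and by -1.04 and -0.13 in the second. Both are of a type that can cross-hybridise. With the mean of all Cpt1a probe sets the call in TGFB KO livers was lost, at -0.46 (adjusted p = 0.221). Cpt2, on the inner membrane, was lower in TGFB KO livers by 1.95-fold (-0.96 ± 0.28, adjusted p = 0.0266) and in IFNko TGFB1 KO livers by 2.21-fold (-1.15 ± 0.28, adjusted p = 0.0104). A second, dimmer Cpt2 probe set, also of the cross-hybridising type, differed by -0.72 in the first comparison and by 0.85 in the second. The Cpt2 probe sets thus disagreed in the second comparison. With the mean of both, neither Cpt2 call was kept, at -0.84 (adjusted p = 0.176) and -0.15 (adjusted p = 0.833). Slc25a20, the carnitine-acylcarnitine translocase, did not pass, at -0.39 ± 0.24 (adjusted p = 0.273) and -0.58 ± 0.24 (adjusted p = 0.0998). Its other probe set differed by -0.80 and -0.87. With the mean of all Slc25a20 probe sets it passed in both comparisons, at -0.596 (adjusted p = 0.0335) and -0.725 (adjusted p = 0.0124).

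All 6 acyl-CoA dehydrogenases, which take the first step of each round, were lower in both comparisons, and for each of them the arrays of the groups did not overlap. Acads, the short chain enzyme, was at 9.42, 9.16 and 9.10 in TGFB KO livers, against 10.30, 10.33 and 10.31 in wildtype control livers. Levels of 8.99, 9.06 and 9.75 were found in IFNko TGFB1 KO livers, against 10.44, 10.37 and 10.33 in INFko TGFB+ livers. It fell 2.11-fold in TGFB KO livers (log2 -1.08 ± 0.20, adjusted p = 0.00271 in limma) and 2.16-fold in IFNko TGFB1 KO livers (-1.11 ± 0.20, adjusted p = 0.00228). The fold changes of the longer chain enzymes were smaller, though no test compared them with that of Acads. Acadm, for medium chains, was at 10.95, 11.37 and 11.06 in TGFB KO livers, against 12.06, 11.99 and 12.01 in wildtype control livers. In IFNko TGFB1 KO livers it was 11.11, 10.46 and 11.45, against 11.93, 12.16 and 12.05 in INFko TGFB+ livers. In limma it had -0.90 ± 0.23 (adjusted p = 0.0148) and -1.04 ± 0.23 (adjusted p = 0.00659). Acadvl, for very long chains, had -0.66 ± 0.21 (adjusted p = 0.0401) and -0.89 ± 0.21 (adjusted p = 0.00944), and Acadl, for long chains, had -0.58 ± 0.16 (adjusted p = 0.0209) and -0.51 ± 0.16 (adjusted p = 0.0349). With the mean of all Acadl probe sets neither Acadl call was kept, at -0.63 (adjusted p = 0.0554) and -0.31 (adjusted p = 0.337). The other Acadl probe set had a mean of 4.98, below the filter level of 5.25, and differed by -0.675 and -0.104.

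The other two dehydrogenases act outside the main fatty acid spiral or are less well characterised. Acad8, isobutyryl-CoA dehydrogenase of valine breakdown, was lower in TGFB KO livers (log2 fold change -0.93 ± 0.30, adjusted p = 0.0396 in limma) and in IFNko TGFB1 KO livers (-1.37 ± 0.30, adjusted p = 0.00577). Acad10 was at 7.65, 7.28 and 7.10 in TGFB KO livers, against 8.47, 8.54 and 8.56 in wildtype control livers. It was 5.72, 6.15 and 7.10 in IFNko TGFB1 KO livers, against 8.49, 8.67 and 8.62 in INFko TGFB+ livers. It fell 2.26-fold in TGFB KO livers (-1.18 ± 0.29, adjusted p = 0.0124) and 4.83-fold in IFNko TGFB1 KO livers (-2.27 ± 0.29, adjusted p = 0.00032). A second Acad10 probe set, at mean log2 levels of 5.11 to 6.04 in the 4 groups, differed by 0.58 and 0.33, in the opposite direction. That probe set is of the cross-hybridising type. With the mean of all probe sets in place of the brightest, the Acad10 fold change was -0.30 in TGFB KO livers (adjusted p = 0.521) and -0.97 in IFNko TGFB1 KO livers (adjusted p = 0.0322).

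**Figure D2:**
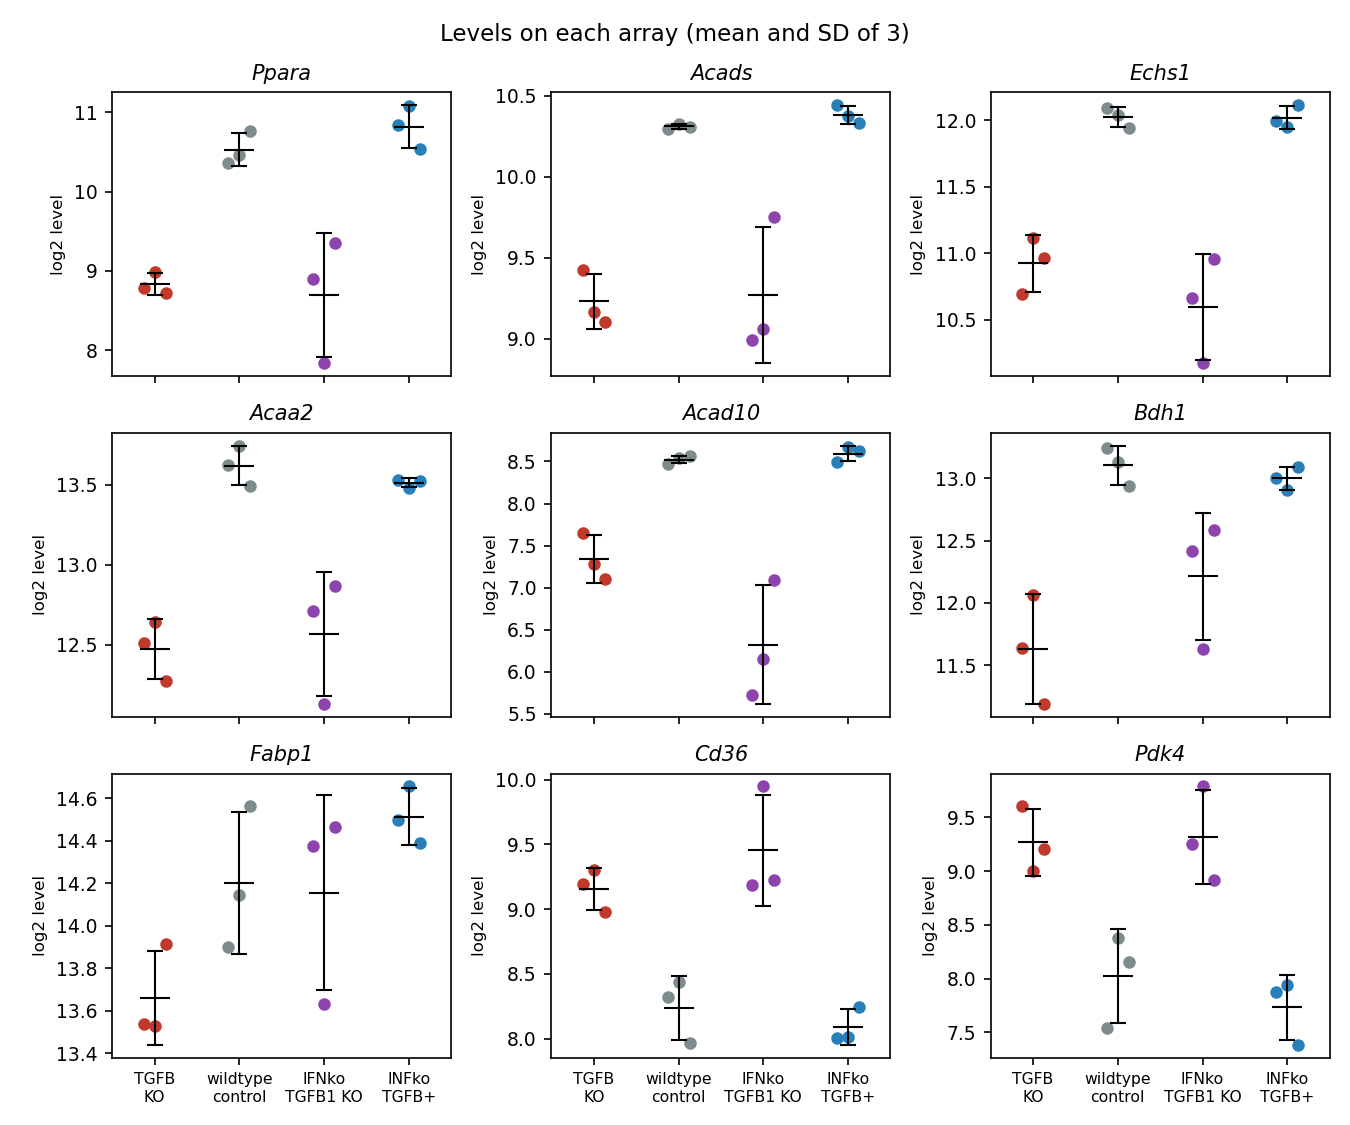
Log2 level (y axis, quantile-normalised log2(signal + 16)) of 9 genes on each of the 12 arrays, with the mean and SD of each group of 3, and each panel on its own scale. For Ppara, Acads, Echs1, Acaa2, Acad10 and Bdh1 all TGFB KO and IFNko TGFB1 KO points lie below the wildtype control and INFko TGFB+ points, for Cd36 and Pdk4 they lie above, and for Fabp1 they overlap.

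In the later steps, Echs1, the short chain enoyl-CoA hydratase, was at 10.69, 11.11 and 10.97 in TGFB KO livers, against 12.09, 12.04 and 11.94 in wildtype control livers. The arrays labelled IFNko TGFB1 KO had 10.66, 10.17 and 10.96, against 11.99, 11.95 and 12.11 in INFko TGFB+ livers. It was 2.14-fold lower in TGFB KO livers (log2 -1.10 ± 0.20, adjusted p = 0.00255 in limma) and 2.68-fold lower in IFNko TGFB1 KO livers (-1.42 ± 0.20, adjusted p = 0.000614). Acaa2, the mitochondrial thiolase that ends each round, was at 12.51, 12.64 and 12.27 in TGFB KO livers, against 13.62, 13.74 and 13.49 in wildtype control livers. Levels of 12.71, 12.13 and 12.87 were found in IFNko TGFB1 KO livers, against 13.53, 13.48 and 13.52 in INFko TGFB+ livers. Its falls were 2.21-fold (-1.14 ± 0.20, adjusted p = 0.00177) and 1.92-fold (-0.94 ± 0.20, adjusted p = 0.00524), and 2 further Acaa2 probe sets differed by -1.09 and -1.22 in the first comparison and by -0.86 and -0.96 in the second.

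Hadh, the short chain 3-hydroxyacyl-CoA dehydrogenase, was lower in TGFB KO livers (log2 fold change -1.08 ± 0.31, adjusted p = 0.0242 in limma) and in IFNko TGFB1 KO livers (-0.97 ± 0.31, adjusted p = 0.0358). Its probe set is of a type that can cross-hybridise, and another Hadh probe set without that mark differed by -1.30 and -1.23. The remaining Hadh probe set, dimmer and also of the cross-hybridising type, differed by 0.04 in the first comparison and by -0.68 in the second. Hadha and Hadhb encode the alpha and beta subunits of the trifunctional protein, which handles long chains. Hadha was lower in TGFB KO livers (-0.53 ± 0.16, adjusted p = 0.0352), and in IFNko TGFB1 KO livers its -0.22 ± 0.16 did not pass (adjusted p = 0.352). The difference between these effects was 0.31, with a 95% interval of -0.20 to 0.82. Hadhb had -0.47 ± 0.19 (adjusted p = 0.0997) and -0.48 ± 0.19 (adjusted p = 0.0898), neither past the threshold.

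The auxiliary enzymes deal with the double bonds of unsaturated fatty acids. Decr1, 2,4-dienoyl-CoA reductase, was at 10.68, 10.72 and 10.46 in TGFB KO livers, against 11.64, 11.67 and 11.86 in wildtype control livers. In IFNko TGFB1 KO livers it was 10.92, 10.01 and 11.20, against 11.58, 11.76 and 11.67 in INFko TGFB+ livers. It was 2.15-fold lower in TGFB KO livers (log2 -1.11 ± 0.26, adjusted p = 0.00917 in limma) and 1.94-fold lower in IFNko TGFB1 KO livers (-0.96 ± 0.26, adjusted p = 0.0176), with -1.77 and -1.91 on a second probe set. Eci1, an enoyl-CoA isomerase, was lower in IFNko TGFB1 KO livers (-0.78 ± 0.20, adjusted p = 0.0135), and in TGFB KO livers its -0.54 ± 0.20 missed the threshold (adjusted p = 0.0701).

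Electrons from the acyl-CoA dehydrogenases pass to the electron transfer flavoprotein, encoded by Etfa and Etfb, and from it to the respiratory chain through the dehydrogenase encoded by Etfdh. Etfdh was at 10.51, 10.88 and 10.95 in TGFB KO livers, against 11.85, 11.71 and 11.86 in wildtype control livers. It was 10.94, 10.24 and 11.19 in IFNko TGFB1 KO livers, against 11.72, 11.84 and 11.71 in INFko TGFB+ livers. It fell 2.04-fold in TGFB KO livers (log2 -1.03 ± 0.23, adjusted p = 0.00716 in limma) and 1.95-fold in IFNko TGFB1 KO livers (-0.96 ± 0.23, adjusted p = 0.00949). With the mean of all Etfdh probe sets both calls were lost, at -0.58 (adjusted p = 0.142) and -0.60 (adjusted p = 0.118). The other Etfdh probe set had a mean of 5.13, below the filter level of 5.25, and differed by -0.126 and -0.245. Etfa (-0.64 ± 0.23, adjusted p = 0.0642, and -0.66 ± 0.23, adjusted p = 0.0549) and Etfb (-0.49 ± 0.19, adjusted p = 0.0825, and -0.43 ± 0.19, adjusted p = 0.121) did not pass in either comparison, although the arrays of the groups did not overlap for either gene.

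Bdh1, which converts acetoacetate to beta-hydroxybutyrate in liver mitochondria, was at 11.64, 12.07 and 11.19 in TGFB KO livers, against 13.25, 13.13 and 12.94 in wildtype control livers. The arrays labelled IFNko TGFB1 KO had 12.42, 11.63 and 12.59, against 13.003, 12.90 and 13.09 in INFko TGFB+ livers. The groups did not overlap in either comparison. Bdh1 was 2.78-fold lower in TGFB KO livers (log2 -1.47 ± 0.27, adjusted p = 0.00238 in limma), and in IFNko TGFB1 KO livers its 1.73-fold lower level missed the threshold (-0.79 ± 0.27, adjusted p = 0.0519). The difference between these effects was 0.69, with a 95% interval of -0.15 to 1.52. A second Bdh1 probe set differed by -1.56 and -1.03.

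Some of these calls were lost when a single array was left out. In the TGFB KO comparison 10 of the 20 calls (Ppara, Pdk4, Cd36, Acads, Acad10, Echs1, Acaa2, Decr1, Etfdh and Bdh1) were kept with each of the 12 arrays left out in turn, and the count of lower genes was 9 without TGFB KO 3 and 10 without wildtype control 1 or without wildtype control 2. Because all groups share the estimate of the spread, leaving out an array of another group can also change a call. Without wildtype control 1 or 2 singly the calls of Fgf21, Cpt2 and Hadh were lost, as they were without TGFB KO 3 (adjusted p 0.0713 to 0.108 for Fgf21, 0.0607 to 0.0921 for Hadh, and 0.0634 to 0.0994 for Cpt2, which was lost also without TGFB KO 2). Slc27a2 was lost without TGFB KO 3 or wildtype control 2 (0.06 to 0.0721) and Acadm without TGFB KO 1 (0.0584). Acadl was lost without TGFB KO 1, TGFB KO 3, wildtype control 1 or wildtype control 3 (0.0539 to 0.0794). Cpt1a was lost without any of TGFB KO 1, TGFB KO 3, wildtype control 1, wildtype control 2, INFko TGFB+ 1 and INFko TGFB+ 2 (0.0515 to 0.126). Acadvl was lost without any array of TGFB KO or INFko TGFB+ or without wildtype control 1 or 2 (0.0519 to 0.137), and Acad8 without any array of TGFB KO, wildtype control or INFko TGFB+ (0.056 to 0.118). Hadha was lost without TGFB KO 1, TGFB KO 3 or any array of wildtype control or INFko TGFB+ (0.054 to 0.12). Calls were gained without IFNko TGFB1 KO 2 by Ppargc1a (0.0386), Eci1 (0.0243), Etfa (0.0245), Etfb (0.0465) and Acsl5, which passed also without TGFB KO 2 (0.042 to 0.0493), and by Mlycd without IFNko TGFB1 KO 1 (0.0268).

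In the IFNko TGFB1 KO comparison 12 of the 19 calls were kept with each array left out (Ppara, Pdk4, Cd36, Cpt2, Acadvl, Acadm, Acads, Acad8, Acad10, Echs1, Acaa2 and Etfdh), and the count of lower genes was 11 without INFko TGFB+ 2. Acadl and Hadh were lost without IFNko TGFB1 KO 2 or any array of INFko TGFB+ (adjusted p 0.0792 to 0.107 and 0.0829 to 0.101), and Mlycd without IFNko TGFB1 KO 1 or any array of INFko TGFB+ (0.0703 to 0.104). Decr1 was lost without INFko TGFB+ 2 or 3 (0.0507 to 0.0628), Slc27a2 without INFko TGFB+ 2 (0.0529) and Eci1 without INFko TGFB+ 1 (0.053). Fgf21 was lost without any of TGFB KO 1, TGFB KO 2, wildtype control 2, IFNko TGFB1 KO 1, IFNko TGFB1 KO 2 and the INFko TGFB+ arrays (0.0548 to 0.139). Other genes gained a call. Bdh1 passed without TGFB KO 2, TGFB KO 3 or IFNko TGFB1 KO 3 (0.0285 to 0.043), and Etfa without TGFB KO 1 or IFNko TGFB1 KO 3 (0.0301 to 0.0492). Hadhb (0.0391) and Slc25a20 (0.0472) passed without IFNko TGFB1 KO 3, and Acsl5 without TGFB KO 3 (0.0422). Without the 2 arrays that carry muscle signal, wildtype control 2 and IFNko TGFB1 KO 2, the counts were 14 lower and 2 higher in TGFB KO livers and 12 lower and 2 higher in IFNko TGFB1 KO livers, an alternative chosen after seeing the data.

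In each group without Tgfb1 the same array was lowest for most of the genes. In TGFB KO livers the array TGFB KO 3 had the lowest level of its group for 22 of the 30 genes, with a median deviation from the wildtype control mean of -0.91, against -0.77 and -0.66 on TGFB KO 1 and TGFB KO 2. In IFNko TGFB1 KO livers the array IFNko TGFB1 KO 2 was lowest for 21 genes, with a median deviation of -1.22, and IFNko TGFB1 KO 3 was highest for 26, with -0.51. IFNko TGFB1 KO 1, the array that stood apart in its median signal, had -0.75. The wildtype control and INFko TGFB+ arrays all lay between -0.04 and 0.04. No wildtype control array was lowest for more than 14 genes, and no INFko TGFB+ array for more than 12. The same count was not made over all genes. The median SD of the 30 genes was 0.24 in TGFB KO, 0.15 in wildtype control, 0.44 in IFNko TGFB1 KO and 0.09 in INFko TGFB+ livers.

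**Figure D3:**
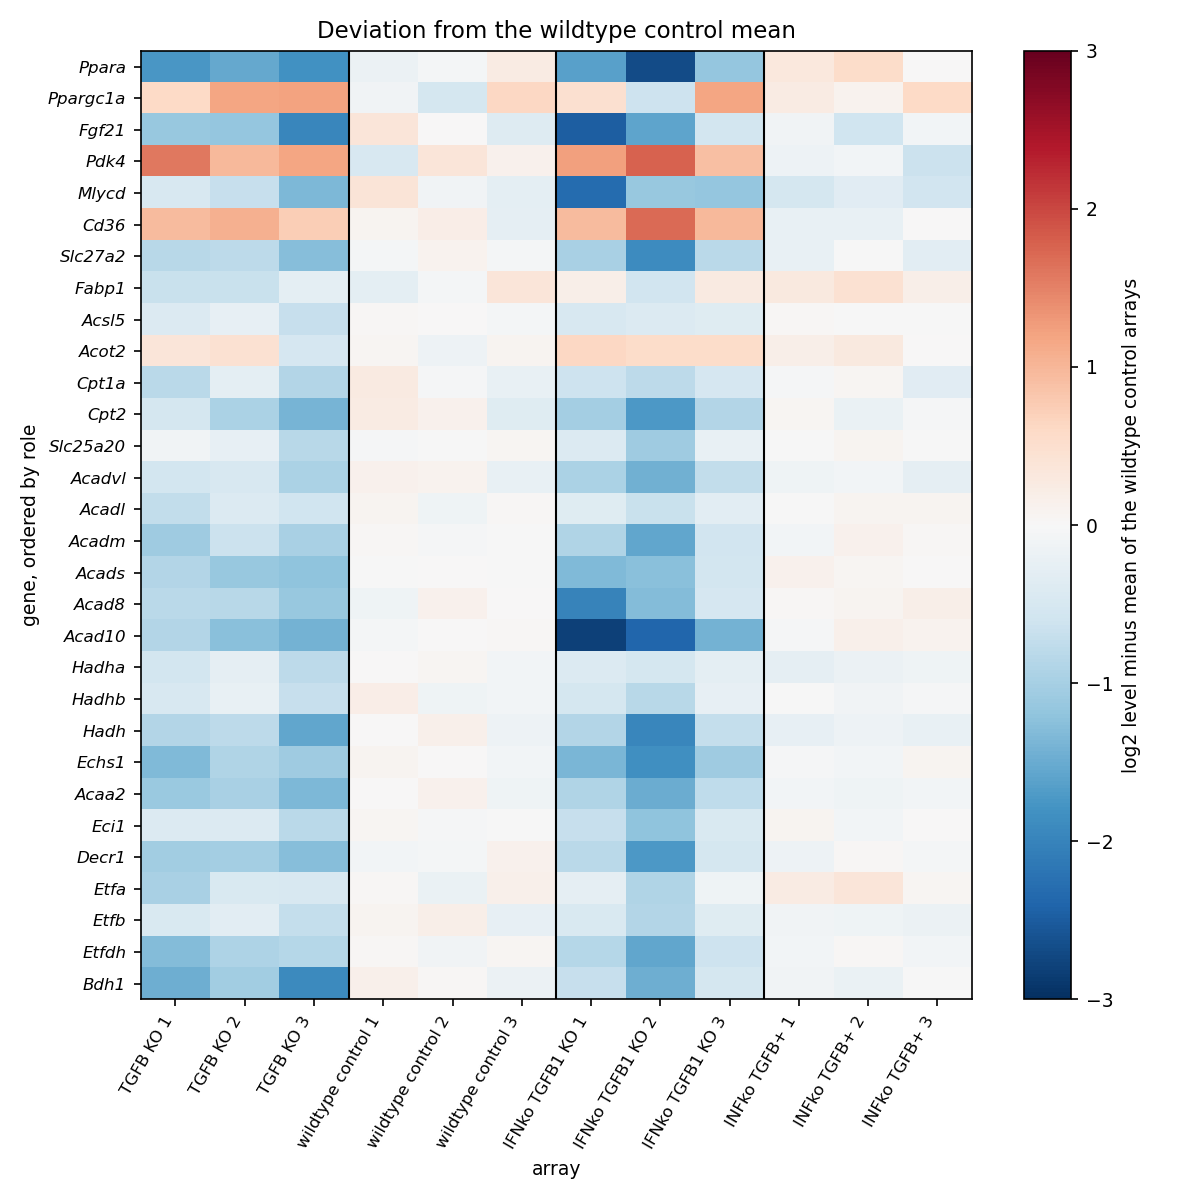
Log2 level of each of the 30 genes (rows, ordered by role) on each of the 12 arrays (columns, by group) minus the mean of the 3 wildtype control arrays, with blue for lower and red for higher. Most cells of TGFB KO and IFNko TGFB1 KO are blue, with Pdk4, Cd36, Ppargc1a and Acot2 mostly red, and IFNko TGFB1 KO 2 is darker than the other arrays of its group for most genes.

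Hepatocyte markers, such as plasma protein genes, were set beside the 30 genes. In TGFB KO livers 0 of 20 were higher and 1 lower (Cyp2e1, log2 -1.96 ± 0.51, adjusted p = 0.0171 in limma, and 0.0688 without TGFB KO 1), with a median log2 fold change of 0.01. In IFNko TGFB1 KO livers 0 were higher and 5 lower, with a median of -0.13. The markers called lower made up 5% and 25%, against 11.9% and 13.1% of all genes. Their summed signal was 305000 to 331900 in TGFB KO, against 325300 to 330500 in wildtype control livers, and 243900 to 308500 in IFNko TGFB1 KO, against 331100 to 333800 in INFko TGFB+ livers. The lowest sum belonged to IFNko TGFB1 KO 2, the array with the lowest levels of the 30 genes, whose hepatocyte marker median deviated by -0.44 from the wildtype control mean, against -0.02 and 0.01 on the other arrays of the group. Quantile normalization gives every array the same set of highest values, and many of these markers are among them. With the values as deposited the medians of hepatocyte markers were -0.26 and -0.33, against -0.78 and -0.94 for the 30 genes, and with arrays centred on their medians they were -0.18 and -0.57, against -0.71 and -1.18. Markers of T and NK cells were higher for 11 of 12 tested genes in TGFB KO livers and 12 of 12 in IFNko TGFB1 KO livers, with summed signal of 1299 to 1670 in TGFB KO, against 300.6 to 426.6 in wildtype control livers, and 3166 to 5574 in IFNko TGFB1 KO, against 277.7 to 362.6 in INFko TGFB+ livers. Over all genes 12.2% and 12.7% were higher in these comparisons. The part of a changed cell composition in the falls of the 30 genes was not tested.

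**Figure D4:**
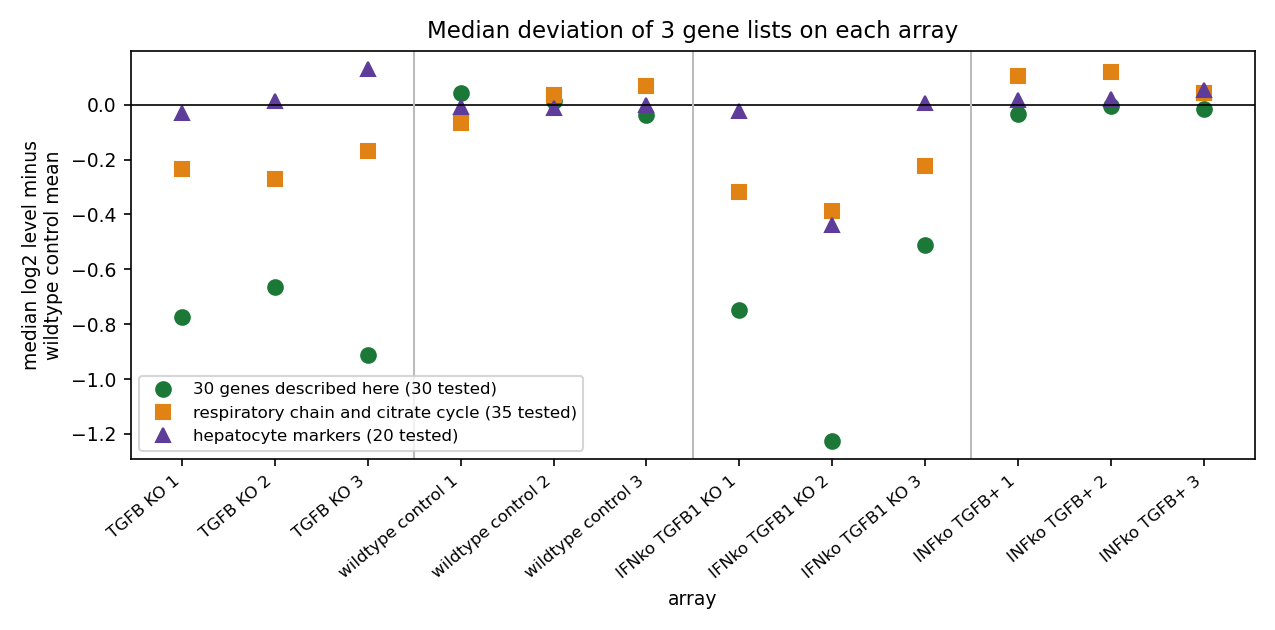
Median log2 level minus the wildtype control mean (y axis) on each of the 12 arrays (x axis) for the 30 genes (circles), 35 respiratory chain and citrate cycle genes (squares) and 20 hepatocyte markers (triangles). The 30 genes lie between -1.22 and -0.51 on the arrays without Tgfb1, lower than both other lists on each of those arrays.

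Further enzymes of acyl-CoA breakdown, a list of mitochondrial, peroxisomal and branched chain amino acid enzymes, fell as well. Of 14 tested, 10 were lower and 0 higher in TGFB KO livers (median log2 fold change -0.83) and 11 lower and 0 higher in IFNko TGFB1 KO livers (median -1.24). Lower were thus 71.4% and 78.6%, against 11.9% and 13.1% of all genes. Acaa1b, a peroxisomal thiolase, was 4.88-fold lower in TGFB KO livers (-2.29 ± 0.26, adjusted p = 0.000111 in limma) and 2.18-fold lower in IFNko TGFB1 KO livers (-1.13 ± 0.26, adjusted p = 0.00884). Acadsb, which acts on short branched acyl-CoA, was 1.78-fold and 3.48-fold lower in the same comparisons (-0.83 ± 0.19, adjusted p = 0.00777, and -1.80 ± 0.19, adjusted p = 9.75e-05). The only measured Acadsb probe set is of the type that can cross-hybridise. Ivd, isovaleryl-CoA dehydrogenase of leucine breakdown, had -1.32 ± 0.26 (adjusted p = 0.00398) and -1.67 ± 0.26 (adjusted p = 0.00112). Pcca, a subunit of propionyl-CoA carboxylase, was 2.55-fold lower in both comparisons (-1.35 ± 0.24, adjusted p = 0.00211 and 0.00222).

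Of 12 further genes of the carnitine shuttle and acyl-CoA activation, 3 were lower and 1 higher in TGFB KO livers (median -0.64). In IFNko TGFB1 KO livers 6 were lower and 0 higher (median -0.48). That is 33.3% called, against 24.1% of all genes, in the first comparison and 50%, against 25.8%, in the second. Crot, the peroxisomal carnitine octanoyltransferase, was lower in both (-1.46 ± 0.30, adjusted p = 0.00458 in limma, and -1.16 ± 0.30, adjusted p = 0.014). With the mean of all Crot probe sets its second call was lost, at an adjusted p of 0.188. The gene that rose was Acsl4, an acyl-CoA synthetase for arachidonate that immune cells also express (1.63 ± 0.35, adjusted p = 0.00607). The medium chain synthetases Acsm1 and Acsm3 were 4.52-fold and 4.48-fold lower in IFNko TGFB1 KO livers (-2.18 ± 0.41, adjusted p = 0.00266, and -2.16 ± 0.46, adjusted p = 0.00565). Both were lowest on IFNko TGFB1 KO 2, at log2 levels of 7.20 and 5.67, so the size of these folds leans on that array. The other arrays of that group also lay below all INFko TGFB+ arrays, and both calls were kept under all alternatives. Neither gene passed in TGFB KO livers, although the groups did not overlap. Mean levels there were 9.42 for Acsm1 and 7.795 for Acsm3, against 10.56 and 9.06 in wildtype control livers.

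Ketone body metabolism was represented by 8 further genes. In TGFB KO livers 3 were lower and 1 higher (median -0.50), and in IFNko TGFB1 KO livers 3 were lower and 2 higher (median -0.39). These are 50% and 62.5% of the list, against 24.1% and 25.8% of all genes called. Acat1, which makes acetoacetyl-CoA from acetyl-CoA, was at 11.42, 12.11 and 11.72 in TGFB KO livers, against 13.32, 13.26 and 13.30 in wildtype control livers. Levels of 11.91, 10.94 and 12.28 were found in IFNko TGFB1 KO livers, against 13.27, 13.37 and 13.32 in INFko TGFB+ livers. Its fold changes were -1.55 ± 0.29 (adjusted p = 0.00304 in limma) and -1.61 ± 0.29 (adjusted p = 0.00243). Oxct1, the transferase by which tissues other than hepatocytes use ketone bodies, rose by 0.87 ± 0.19 (adjusted p = 0.00607) and 1.40 ± 0.19 (adjusted p = 0.000418) on the log2 scale. Sirt3, the mitochondrial deacetylase of these enzymes, was lower in both (-1.10 ± 0.29, adjusted p = 0.0163, and -1.33 ± 0.29, adjusted p = 0.00587), where the first call was lost without TGFB KO 1, TGFB KO 2 or wildtype control 3 (adjusted p up to 0.0609).

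Other genes known as PPAR-alpha targets did not move one way. Of 30 tested, 11 were lower and 5 higher in TGFB KO livers (median -0.39), and 13 were lower and 5 higher in IFNko TGFB1 KO livers (median -0.49). Called were thus 53.3% and 60%, against 24.1% and 25.8% of all genes. Acot3, an acyl-CoA thioesterase, fell by 2.44 ± 0.34 on the log2 scale (adjusted p = 0.000463 in limma) and by 2.75 ± 0.34 (adjusted p = 0.000287). Ehhadh, the peroxisomal bifunctional enzyme, fell by 1.15 ± 0.19 (adjusted p = 0.00141) and by 0.65 ± 0.19 (adjusted p = 0.029). Fabp4 of adipocytes and macrophages (1.98 ± 0.15, adjusted p = 7.4e-06, and 1.59 ± 0.15, adjusted p = 5.84e-05) and the lipoprotein lipase inhibitor Angptl4 (1.06 ± 0.23, adjusted p = 0.00618, and 1.43 ± 0.23, adjusted p = 0.00118) were higher in both.

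Among 22 further regulators of fatty acid oxidation, 5 were lower and 1 higher in TGFB KO livers (median 0.02) and 8 lower and 1 higher in IFNko TGFB1 KO livers (median -0.21). The share called was 27.3%, near the 24.1% of all genes, in the first comparison, and 40.9%, against 25.8%, in the second. The gene that rose in both was Pdk3, another pyruvate dehydrogenase kinase (1.48 ± 0.18, adjusted p = 0.000139 in limma, and 1.28 ± 0.18, adjusted p = 0.000472). Foxa2, a transcription factor of fasting metabolism, was 3.10-fold lower in TGFB KO livers (-1.63 ± 0.33, adjusted p = 0.00411) and 5.83-fold lower in IFNko TGFB1 KO livers (-2.54 ± 0.33, adjusted p = 0.000336). Prkaa2, a catalytic subunit of AMP-activated kinase, was lower in both (-1.24 ± 0.36, adjusted p = 0.0258, and -2.22 ± 0.36, adjusted p = 0.00118). Fgfr4, the liver receptor of the FGF family, fell by 1.72 ± 0.28 (adjusted p = 0.00132) and by 1.32 ± 0.28 (adjusted p = 0.00587).

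The respiratory chain and citrate cycle, to which beta-oxidation delivers its electrons and acetyl-CoA, had 5 of 35 genes lower and 0 higher in TGFB KO livers (median -0.24) and 9 lower and 0 higher in IFNko TGFB1 KO livers (median -0.29). That is 14.3% and 25.7% of the list called lower, against 60% and 56.7% of the 30 genes and 11.9% and 13.1% of all genes. Suclg2, a subunit of succinyl-CoA ligase, had the smallest p-value of the list in both comparisons (-0.85 ± 0.19, adjusted p = 0.00794 in limma, and -1.04 ± 0.19, adjusted p = 0.00262).

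**Figure D5:**
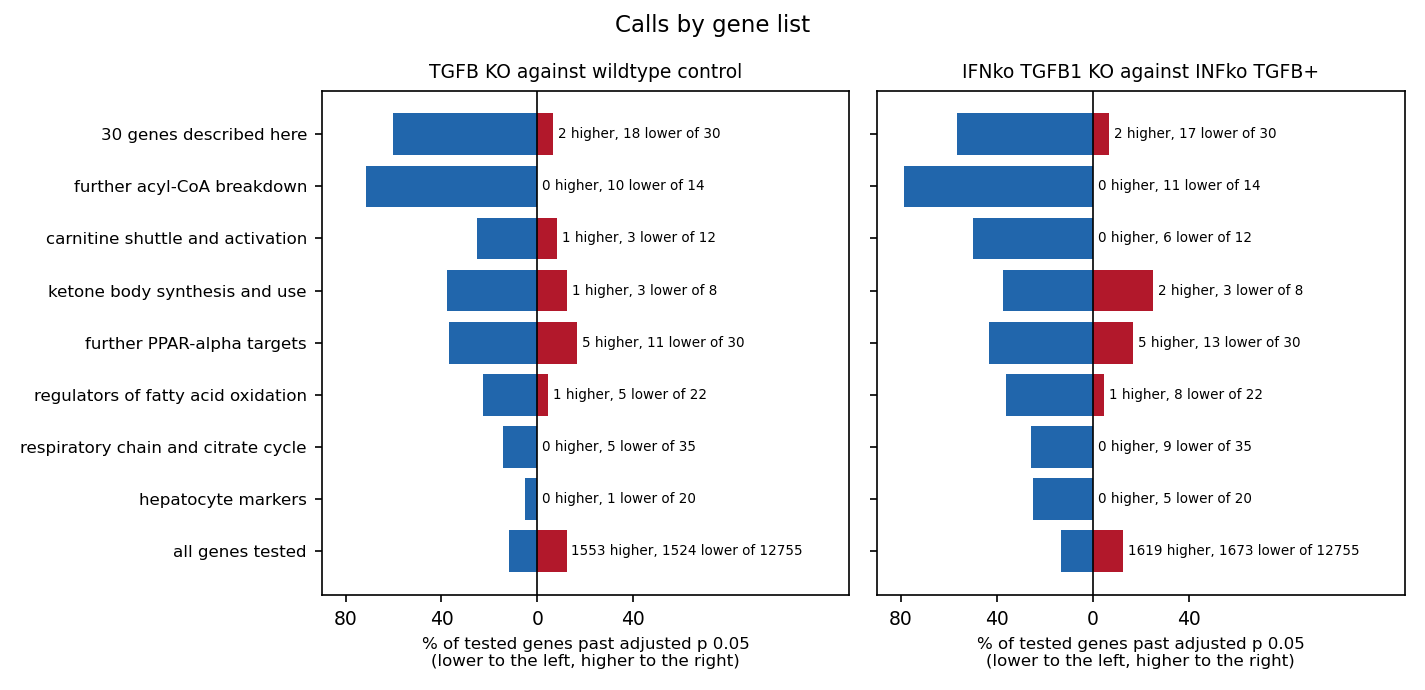
Percent of tested genes past an adjusted p of 0.05 (x axis, lower to the left in blue and higher to the right in red) for 8 gene lists and all genes tested, in TGFB KO against wildtype control livers (left) and IFNko TGFB1 KO against INFko TGFB+ livers (right). The 30 genes have 60% and 56.7% lower, the further acyl-CoA breakdown genes 71.4% and 78.6%, and all genes 11.9% and 13.1%.

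Whether the effect of Tgfb1 loss differed between the pairs with and without the IFNko label was tested as the difference of the 2 effects, IFNko TGFB1 KO against INFko TGFB+ minus TGFB KO against wildtype control. None of the 30 genes passed (0 by limma, 1 at an unadjusted p below 0.05), where 0.87% of all genes did, 111 in number. The median difference of the 30 genes was 0.00, with 15 negative and 15 positive. That even split held with quantile normalization and not with the other scalings, since the values as deposited gave a median of -0.12 with 20 of 30 negative, and arrays centred on their medians gave -0.43 with 27 of 30 negative, where the median of all genes was 0.07 and -0.25. The gene below an unadjusted p of 0.05 was Acad10, with a difference of -1.09 ± 0.41, a 95% interval of -1.99 to -0.19 and an adjusted p of 0.318. Without IFNko TGFB1 KO 3 that adjusted p was 0.0323. The intervals of the other genes were wide, from -1.42 to 0.57 for Ppara and from -0.66 to 0.59 for Acads, so a difference of that size could have been missed.

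The groups without Tgfb1 were also set against each other. Between IFNko TGFB1 KO and TGFB KO livers, 0 of the 30 genes passed by limma and 1 was below an unadjusted p of 0.05, where 5.36% of all genes were called. It was Acad10 again, at mean log2 levels of 6.32 ± 0.70 in IFNko TGFB1 KO and 7.34 ± 0.28 in TGFB KO livers (SD, n = 3 each), with a fold change of -1.02 ± 0.29 (adjusted p = 0.068 in limma, and 0.00376 without IFNko TGFB1 KO 3). Bdh1 had 0.58 ± 0.27 (adjusted p = 0.248) and Fabp1 0.50 ± 0.25 (adjusted p = 0.281). This comparison and the difference of effects share arrays with the comparisons above.

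No gene of the pathway passed where Tgfb1 was kept in both groups. Between INFko TGFB+ and wildtype control livers, 0 of the 30 genes passed by limma and 0 were below an unadjusted p of 0.05, where 0% of all genes were called and 649 of 12755 were below an unadjusted p of 0.05. The median log2 fold change of the 30 genes was -0.05, against 0.00 over all genes. Ppara was at 10.82 ± 0.27 in INFko TGFB+ and 10.53 ± 0.21 in wildtype control livers (SD, n = 3 each), a difference of 0.29 with a 95% interval of -0.41 to 1.00. For Acads the difference was 0.07 (-0.37 to 0.51) and for Echs1 0.00 (-0.45 to 0.44).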

How the data were processed

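Liver RNA of 12 mice was measured on 12 one-colour oligonucleotide arrays, after Trizol extraction and biotin labelling per the labels' protocols. Each deposited file column holds linear intensity for 45101 probe sets. From the values, each array had been scaled by the authors to a common trimmed mean; neither the signal algorithm nor that target is stated in the sources used here. The label of 1 INFko TGFB+ array carries no replicate number, and it is called replicate 1.

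A pseudocount of 16 was added to the deposited intensity, log2 was taken and the 12 arrays were quantile-normalised, since array medians differed by 0.634, above the limit of 0.5. The 64 control probe sets, probe sets with several symbols (932) or none listed (9211), and those with a mean under the 40th percentile (5.25) were left out. Symbols were updated with RefSeq names of GRCm38.p6. Groups were compared with limma 3.58.1 in R 4.3.3, in 1 fit with a mean per group (8 residual and 3.44 prior degrees of freedom), with two-sided p-values and Benjamini-Hochberg adjustment over 12755 genes. Values after ± are standard errors unless given as SD. The number of arrays, 3 per group, limits the precision.

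Members of the pathway and all gene lists were chosen with earlier results of these data known. Named genes are all measured members, Tgfb1 and Ifng, and, of each list, up to 4 with the smallest p per comparison, of which the text describes a selection. The procedure was run on simulated data with independent noise per gene and known shifts in the TGFB KO arrays only. Those data held no deviation shared by the genes of an array, so the run does not cover such deviations. Same-numbered arrays did not all deviate together. Between TGFB KO and wildtype control their correlations were 0.098, 0.065 and 0.343 for numbers 1, 2 and 3, where the highest with another number was 0.142, 0.089 and -0.167, and in the other pair of groups they were 0, -0.055 and -0.004, against 0.009, 0.044 and 0.056. One pair of 6 thus exceeded 0.1, and no pairing was used. Alternatives were other scalings, pseudocounts, filters and probe set rules, the compared arrays alone, array weights, a replicate block and each array left out.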

Additional observations from a re-analysis of the deposited data

Results flagged for a closer look

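None of the 30 genes had an effect of Tgfb1 loss that differed with Ifng at an adjusted p below 0.05 in limma, while 3 marker genes named beside them did. These differences are IFNko TGFB1 KO against INFko TGFB+ minus TGFB KO against wildtype control, on the log2 scale. The T cell gene Cd3g had a difference of 2.01 ± 0.40 (adjusted p = 0.0415), with rises of 4.14 in IFNko TGFB1 KO and of 2.13 in TGFB KO livers, and this call was lost under 14 of 22 alternatives (adjusted p up to 0.141), among them 9 of the 12 that leave out an array. Lrat, a stellate cell gene of retinoid storage, had a difference of 2.19 ± 0.25 (adjusted p = 0.00204), higher by 1.05 in IFNko TGFB1 KO and lower, at -1.14, in TGFB KO livers. Reln, another stellate cell gene, had a difference of 2.31 ± 0.29 (adjusted p = 0.00356), which was lost with the mean of all its probe sets (adjusted p = 0.283).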

How the results depend on the processing

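No call of the 30 genes changed direction under any alternative that was run. All alternatives kept 8 of the 20 calls in TGFB KO livers (Ppara, Pdk4, Cd36, Acads, Echs1, Acaa2, Decr1 and Bdh1) and 10 of the 19 in IFNko TGFB1 KO livers (Ppara, Pdk4, Cd36, Acadvl, Acadm, Acads, Acad8, Acad10, Echs1 and Acaa2). With each array left out in turn, 9 to 22 of the 30 genes were lower and 2 to 3 higher in TGFB KO livers, and 11 to 21 were lower in IFNko TGFB1 KO livers. In the difference of effects and in IFNko TGFB1 KO against TGFB KO, 0 to 1 was lower. The genes called then numbered 46 to 160 for the difference of effects (main 111), 327 to 730 for IFNko TGFB1 KO against TGFB KO (main 684) and 0 to 2 for INFko TGFB+ against wildtype control (main 0). With only the arrays compared, 11 genes were lower in IFNko TGFB1 KO than in INFko TGFB+ livers (main 17), and 213 genes were called for IFNko TGFB1 KO against TGFB KO. A pseudocount of 1 gave 57 genes and a pseudocount of 64 gave 212 for the difference of effects, and a pseudocount of 64 or a 60th percentile filter gave 1 lower member, against 0, for IFNko TGFB1 KO against TGFB KO. Without both arrays with muscle signal, 2 genes were called for INFko TGFB+ against wildtype control. A replicate block, for which the numbers gave no pairing, left 15 lower and 3 higher in TGFB KO livers and 14 lower and 2 higher in IFNko TGFB1 KO livers. The values as deposited gave 22 and 23 lower, and arrays centred on their medians 12 and 24. The cause of these changes was not tested. Clec4g, an endothelial marker lower in TGFB KO livers, reversed to 0.042 (adjusted p = 0.897) with the mean of its probe sets.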
